A study of Mus musculus with 18 samples.

Results

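The comparison described here set caput epididymis collected after ethanol (EtOH) cessation against caput collected at 10 weeks, within the 6% EtOH arm. Its members were chosen by their treatment labels alone: the 3 libraries labelled 6% EtOH-Cessation and the 3 labelled 6% EtOH, which are 6 of the 18 libraries deposited. All mice were C57BL/6J, the tissue was the caput portion of the epididymis, and total RNA was sequenced. The other 12 libraries were untreated controls and 10% EtOH animals at the same times, and the 3 Control cessation and 3 Control 10 weeks libraries are used below as the same interval without ethanol. The series title puts cessation at 1 month. The sources used here do not state how ethanol was given, how long the cessation animals had been treated, their ages, or whether libraries shared a cage, day or batch. The end of ethanol, the passage of time and the occasion of collection therefore cannot be told apart within the 6% EtOH arm. The labels do not say that libraries of a group came from separate animals, so p-values measure the spread between these libraries.

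The caput is the first stretch of the duct in which sperm mature. Its principal cells secrete large amounts of lipocalins, defensins, proteases and antioxidant enzymes into the lumen, under the control of androgens and of factors arriving from the testis, and the duct is wrapped in smooth muscle and vessels. Much of what follows concerns immediate early genes, which are transcribed from pre-existing factors within minutes of a stimulus without new protein synthesis. They encode transcription factors such as Fos and Jun, the feedback regulators that then shut the signal down, and, in vessels and stroma, chemokines and adhesion molecules.

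The 6 libraries held between 10.7M and 18.2M assigned reads, 15.6M to 18.2M at 10 weeks and 10.7M to 14.8M after cessation. The caput label was borne out by its markers: Gpx5, Lcn8, Lcn9 and Adam7 stood at 1270 CPM (read counts scaled to a common library size by TMM) or more in each of the 6. 3 features moved with the groups or with 1 library. Messenger RNA encoded by mitochondria took 0.997% to 1.41% of reads at 10 weeks and 1.08% to 3.58% after cessation, with the highest share in cessation replicate 3. The non-coding RNA 7SK took 1.86% to 2.01% and 2.52% to 2.69%. On the TMM scale 7SK stood at 19000, 20900 and 20900 CPM and then at 21000, 26200 and 27100 CPM. Its log2 fold change was 0.29 ± 0.26, which was not called (edgeR, adjusted p = 0.540). Cessation replicate 1 had the largest TMM factor of the 6 (1.20), the lowest level of secretory genes and the highest median levels of muscle, vessel and ciliated cell markers, and its sample label and its count table carry different identifiers.

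After cessation 35 genes were higher and 0 lower in the 6% EtOH caput (edgeR's quasi-likelihood test over all 18 libraries, Benjamini-Hochberg adjusted p under 0.05, 18618 genes tested). That is 0.188% of tested genes called higher and 0% called lower. Of the 35 genes, 12 encode immediate early transcription factors, 7 feedback or effector proteins of the same response, and 7 cytokines, chemokines, adhesion molecules or their regulators. The other 9 were the chaperone gene Dnajb4, the matrix gene Thbs1 and 7 genes outside every list. Their log2 fold changes ran from 0.60 to 7.81 with a median of 4.33, against a median of 0.04 over all genes tested. In each of the 35 the 3 cessation libraries lay above the 3 of 10 weeks, which was so for 13.8% of all genes tested. The 35 were called on these same libraries, so this separation is no separate support. The reverse, all 3 cessation libraries below, held for 12.2%. At an unadjusted p under 0.05 there were 2245 higher and 1313 lower genes against 931 expected in both directions. DESeq2 called 348 higher and 71 lower, all 35 among the calls, and limma voom 10 higher and 0 lower. The count changed with the library left out: 0 passed when any 1 of the 10-week libraries was left out, with a smallest adjusted p between 0.0594 and 0.0618, while 14, 21 and 88 passed without cessation replicates 1, 2 and 3.

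**Figure D1:**
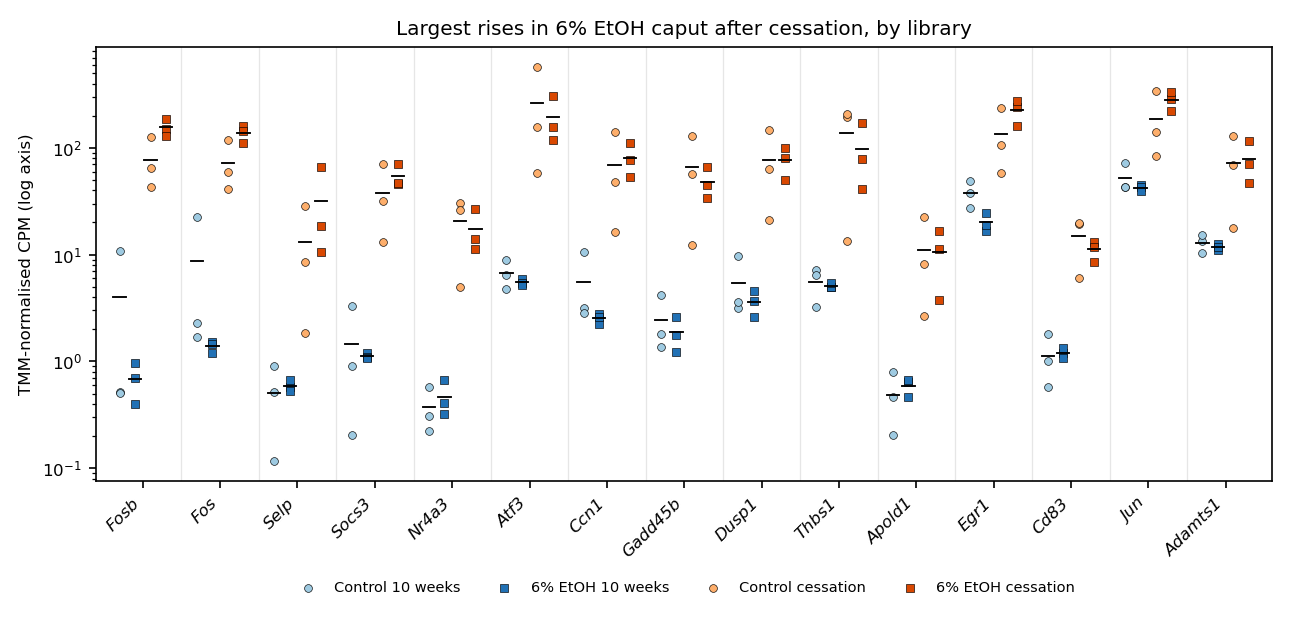
CPM on a log axis of the 15 genes with the largest rises past the threshold and a mean log2 CPM of at least 1, in the 12 libraries of 6% EtOH (squares) and control (circles) at 10 weeks (blue) and after cessation (orange). Each point is a library and each line a group mean. The 3 dark orange squares lie above the 3 dark blue ones for every gene because non-overlap was also a condition of choice. For Fos they sit between 112 and 160 CPM against 1.21 to 1.51. Control 10 weeks replicate 3 (22.4 CPM) stands apart from its group there.

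Promoter sequence is shown for 4 of the 35 genes. All 4 carry TGACG, which was found in 18 of the 28 called genes with a promoter at hand. The 250 bases before the transcription start are from RefSeq (build GRCm38.p6, an earlier build than the GRCm39 of the count tables), written 5′ to 3′ in the direction of the gene. Capitals mark TGACG, the core bound by CREB and ATF proteins, its full palindrome TGACGTCA, or a consensus NF-kB site, found on either strand. Fos lies at chr12:85473640-85473889 (+), Fosb at chr7:19310046-19310295 (-), Dusp1 at chr17:26508473-26508722 (-) and Cxcl1 at chr5:90890995-90891244 (+).
Fos: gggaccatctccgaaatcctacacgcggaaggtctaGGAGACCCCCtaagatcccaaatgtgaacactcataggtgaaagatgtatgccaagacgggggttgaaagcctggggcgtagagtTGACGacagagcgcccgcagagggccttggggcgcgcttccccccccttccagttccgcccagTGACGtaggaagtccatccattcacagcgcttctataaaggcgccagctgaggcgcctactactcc
Fosb: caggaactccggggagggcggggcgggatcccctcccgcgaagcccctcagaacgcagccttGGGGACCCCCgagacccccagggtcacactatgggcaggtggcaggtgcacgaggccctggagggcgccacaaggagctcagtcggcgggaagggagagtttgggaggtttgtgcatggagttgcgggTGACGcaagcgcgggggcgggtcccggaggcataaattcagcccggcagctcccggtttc
Dusp1: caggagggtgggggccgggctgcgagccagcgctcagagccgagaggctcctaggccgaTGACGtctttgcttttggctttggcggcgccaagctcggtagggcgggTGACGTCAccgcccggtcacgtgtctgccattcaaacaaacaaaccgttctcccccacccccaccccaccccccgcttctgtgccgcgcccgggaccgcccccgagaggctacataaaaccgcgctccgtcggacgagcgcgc
Cxcl1: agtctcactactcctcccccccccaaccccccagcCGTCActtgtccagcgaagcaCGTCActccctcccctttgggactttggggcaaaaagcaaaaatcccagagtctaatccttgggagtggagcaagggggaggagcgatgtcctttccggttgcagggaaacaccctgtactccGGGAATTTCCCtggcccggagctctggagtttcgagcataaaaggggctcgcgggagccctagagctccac

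A promoter of this length was at hand for 28 of the 35 genes. TGACG was present in 18 of the 28 (64.3%), against 28.0% of the 12838 tested genes with a promoter and 19.8% of all 27025 promoters. TGACGTCA, each copy of which also contains TGACG, was in 3 of 28 (Btg2, Dusp1 and Has1, 10.7%), against 2.73% and 1.77%. A consensus NF-kB site was in 6 of 28 (Ccrl2, Cxcl1, Cxcl2, Fos, Fosb and Tnfaip3, 21.4%), against 5.42% and 4.46%. A CArG box, the element read by serum response factor, was in 1 of 28 (Zfp36, 3.57%), against 1.39% and 1.62%. These are matches of letters in this window and no measure of binding.

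Among the immediate early transcription factors, 12 of 24 tested genes were called higher and none lower, against 0.188% and 0% of all genes tested. The median log2 fold change over the list was 2.31. Fosb, a partner of Jun in the AP-1 dimer, had the largest change. It stood at 0.956, 0.697 and 0.401 CPM in 10-week replicates 1, 2 and 3 and at 188, 151 and 129 CPM in the cessation replicates. The groups were far apart and tight, and the log2 fold change was 7.81 ± 0.98 (SE, edgeR, adjusted p = 0.00420). Fos, the archetype of the class, stood at 1.21, 1.51 and 1.47 CPM and then at 160, 144 and 112 CPM, a log2 fold change of 6.63 ± 0.87 (adjusted p = 0.00420). Egr1, a zinc finger factor induced by growth factors and stretch, stood at 24.5, 16.6 and 19.0 CPM and then at 243, 272 and 160 CPM, 11.2-fold higher. Jun stood at 44.5, 43.3 and 39.2 CPM at 10 weeks and reached 286, 335 and 223 CPM, a log2 fold change of 2.73 ± 0.39 (edgeR, adjusted p = 0.00460).

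Atf3, a stress-induced factor of the ATF family, stood at 5.93, 5.46 and 5.21 CPM at 10 weeks and at 309, 156 and 119 CPM after cessation. All 3 cessation libraries were high and cessation replicate 1 was highest. Nr4a3, an orphan nuclear receptor, went from 0.464 ± 0.181 to 17.4 ± 8.16 CPM (mean ± SD, n = 3 each), 37.2-fold. Its relative Nr4a1 rose less, by 1.43 on the log2 scale. The Krüppel-like factors Klf2, Klf4 and Klf6 rose 5.43-fold, 4.04-fold and 3.87-fold. Junb rose 4.32-fold and Ier2 2.09-fold, the smallest rise of the 12.

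The 12 tested members of this list that did not pass include genes with the same order of libraries. Csrnp1 stood at 5.80, 7.32 and 7.21 CPM and then at 66.0, 38.4 and 30 CPM (adjusted p = 0.0789). Myc stood at 3.44, 3.08 and 2.87 CPM and then at 27.8, 17.5 and 12.1 CPM (edgeR, adjusted p = 0.137). Egr2 went the other way on the CPM scale, from 360, 353 and 379 to 177, 317 and 287, without passing (adjusted p = 0.258). In all, 22 of the 24 had cessation libraries above all 10-week libraries and 1, Egr2, had them below, against 13.8% and 12.2% of all genes tested. Egr4 and Npas4, the other 2 listed genes, were below the filter with 2 reads at 10 weeks and 4 after cessation each.

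Of 28 tested genes for feedback and effector proteins of the same signals, 7 were called higher and none lower, against 0.188% and 0% of all genes tested. Of the 28, 5 had log2 fold changes below 0, and the list's median log2 fold change was 1.39. Socs3, which blocks cytokine receptor signalling, stood at 1.21, 1.10 and 1.07 CPM and then at 70.3, 46.2 and 47.2 CPM. The log2 fold change was 5.59 ± 0.74 (edgeR, adjusted p = 0.00420). Dusp1, a phosphatase that inactivates MAP kinases, stood at 3.70, 4.53 and 2.60 CPM and then at 99.3, 81.2 and 50.3 CPM, 21.2-fold higher. Its printed promoter carries the only TGACGTCA of the 4 shown. Ccn1, a secreted matricellular protein, rose 31.6-fold, Gadd45b 25.8-fold, the mRNA-decay factor Zfp36 6.58-fold and the antiproliferative gene Btg2 6.06-fold. Rgs1, a brake on G protein signalling, completed the 7, at a log2 fold change of 4.33. It had 10 reads over the 10-week 6% EtOH libraries, too few to pass the filter there, so the filter favoured a rise in it.

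Not every regulator of this kind was higher. Dusp6, which acts on ERK, stood at 142, 144 and 148 CPM at 10 weeks and at 55.7, 117 and 110 CPM after cessation (adjusted p = 0.217). Spry4, an inhibitor of receptor tyrosine kinases, had a log2 fold change of -0.01 ± 0.22 (edgeR, adjusted p = 0.988). Dusp4 and Spry1 were at -0.30 and -0.16, neither past the threshold.

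Chemokines and adhesion molecules rose from levels near 0. Of 26 tested genes of the inflammatory list 7 were called higher and none lower, against 0.188% and 0% of all genes tested. All 26 had a log2 fold change above 0, against 54.1% of all genes tested, and the median was 2.26. Members such as Cxcl2, Sele, Ccl2 and Il6 had at most 2 reads over the 10-week 6% EtOH libraries. That is too few to pass the filter there, so the filter favoured a rise in them. Below the filter, Ccl19 had 12 reads at 10 weeks and 10 after cessation, and Cxcl5 0 and 16. Il1b, the cytokine interleukin 1 beta, stood at 0.319, 0.116 and 0.134 CPM and then at 14.2, 4.99 and 4.24 CPM, 40.0-fold higher (edgeR, adjusted p = 0.00420). Cxcl1, which attracts neutrophils, stood at 0.0637, 0.116 and 0.20 CPM and then at 31.3, 7.42 and 3.11 CPM. Both genes were highest in cessation replicate 1, and the groups did not overlap. Tnfaip3, an inhibitor of NF-kB signalling, rose 4.63-fold from 5.20 ± 1.02 CPM (SD, n = 3).

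3 of these genes, and Ackr1, which is outside the list, had 2 reads in all over the 10-week libraries, so their ratios are wide. Cxcl2 had 328 reads after cessation, a ratio of 195 per effective library size (exact 95% interval 53.7 to 1620). Sele, the endothelial adhesion molecule E-selectin, had 324 reads and a ratio of 193 (53.0 to 1600). Ccl2, which attracts monocytes, had 220 reads and a ratio of 131 (35.9 to 1090), and Ackr1, a chemokine-binding receptor of venules, 149 reads and a ratio of 88.8 (24.2 to 740). These intervals cover counting error only. Between 72.5% and 76.7% of the counts from 1 to 9 in these 6 libraries were even, so the intervals are too narrow if both mates of a read pair were counted, which the sources used here do not state. Il6 was listed at 0 in all 10-week libraries and at 26.5, 11 and 6.60 CPM after cessation, without passing (edgeR, adjusted p = 0.0950).

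Selp, the endothelial and platelet adhesion molecule P-selectin, stood at 0.573, 0.523 and 0.668 CPM at 10 weeks and at 65.7, 18.5 and 10.5 CPM after cessation. The spread after cessation was wide, from cessation replicate 1 down to replicate 3, and the log2 fold change was 5.74 ± 1.08 (edgeR, adjusted p = 0.0449). Markers of endothelium were also highest in cessation replicate 1, then replicate 2. All 12 endothelial markers had a log2 fold change above 0 with a median of 1.45 (0.81 without cessation replicate 1), none was called, and their summed level was 91.6 to 132 CPM at 10 weeks and 109 to 446 CPM after cessation. Pecam1 stood at 8.28, 8.83 and 12.6 CPM and then at 55.9, 30.2 and 10.4 CPM. In cessation replicate 3 the endothelial sum (109 CPM) was within the 10-week range while Selp was at 10.5 CPM. What part the share of vessel cells had in these rises was not tested, and in whole tissue more cells of a type and more RNA per cell cannot be told apart. Of the neutrophil and mast cell list, only Kit and Csf3r were tested. Csf3r had a log2 fold change of 0.98 and Kit of -0.28, neither past the threshold (edgeR, adjusted p = 0.293 and 0.257). S100a9 and Elane had 0 reads in all 6 libraries. Reads at 10 weeks and after cessation were 4 and 0 for S100a8 and for Mpo, 6 and 2 for Cpa3, and 8 and 8 for Tpsb2. They were 0 and 2 for Ly6g, 2 and 6 for Mcpt4, and 0 and 8 for Cma1.

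The remaining calls were genes of the cell surface, the matrix and protein folding. Thbs1, the matricellular thrombospondin 1, stood at 4.97, 4.94 and 5.41 CPM and then at 171, 79.0 and 41.5 CPM, a log2 fold change of 4.25 ± 0.80 (edgeR, adjusted p = 0.0477). It was the 1 call among 25 matrix genes, whose median was 0.74 (0.30 without cessation replicate 1). Dnajb4, a co-chaperone of Hsp70, was the 1 call among 24 heat shock genes. It stood at 30, 29.0 and 27.0 CPM and then at 46.5, 40.0 and 43.8 CPM, 1.52-fold, the smallest change of the 35. The inducible Hsp70 genes Hspa1a and Hspa1b were 2.31 ± 0.66 and 1.52 ± 0.45 higher on the log2 scale without passing (adjusted p = 0.171 and 0.175). Outside the lists, the dendritic and B cell activation marker Cd83 stood at 1.21, 1.34 and 1.07 CPM and then at 13, 8.61 and 11.9 CPM. The protease Adamts1 rose 6.63-fold, the endothelial early gene Apold1 17.9-fold, the hyaluronan synthase Has1 26.4-fold and the small GTPase Rnd1 34.3-fold. Has1 had 6 reads and Rnd1 8 over the 10-week 6% EtOH libraries. That is too few to pass the filter there, so the filter favoured a rise in both. Ccrl2, a receptor that binds chemerin, rose by 3.29 on the log2 scale.

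The controls, which share no library with the 6% EtOH groups, went in the same direction over the same interval for all 35 genes. In Control cessation against Control 10 weeks 22 genes were called higher (0.118% of those tested) and 0 lower (edgeR, with 1516 lower at an unadjusted p under 0.05 and 259 lower in DESeq2). Of these, 17 were also called in 6% EtOH, which is 48.6% of the 35 and 77.3% of the 22. All 35 genes had a control log2 fold change above 0 and control groups that did not overlap, which was so in that direction for 12% of all genes tested. Some of them, such as Sele, Ccl2 and Ackr1, were at most at 0.116 CPM in each Control 10 weeks library. The filter ran over all groups and kept these through cessation libraries, so a fall in control was hardly possible for them. The control median over the 35 was 3.64. The 35 were chosen by their call in 6% EtOH, which favours larger values in that arm, so the size of change in the 2 arms is not compared over them. Atf3, for example, stood at 6.47, 4.79 and 8.85 CPM in Control 10 weeks and at 157, 57.8 and 575 CPM in Control cessation. Across all tested genes 74.0% had the same sign of change in both arms. The control count ranged from 0 without Control 10 weeks replicate 2 to 2724 without Control cessation replicate 2. It was 1 and 10 without 10-week replicates 1 and 3, 11 and 6 without cessation replicates 1 and 3, and 0 in a fit of the 6 control libraries alone, whose smallest adjusted p was 0.141.

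**Figure D2:**
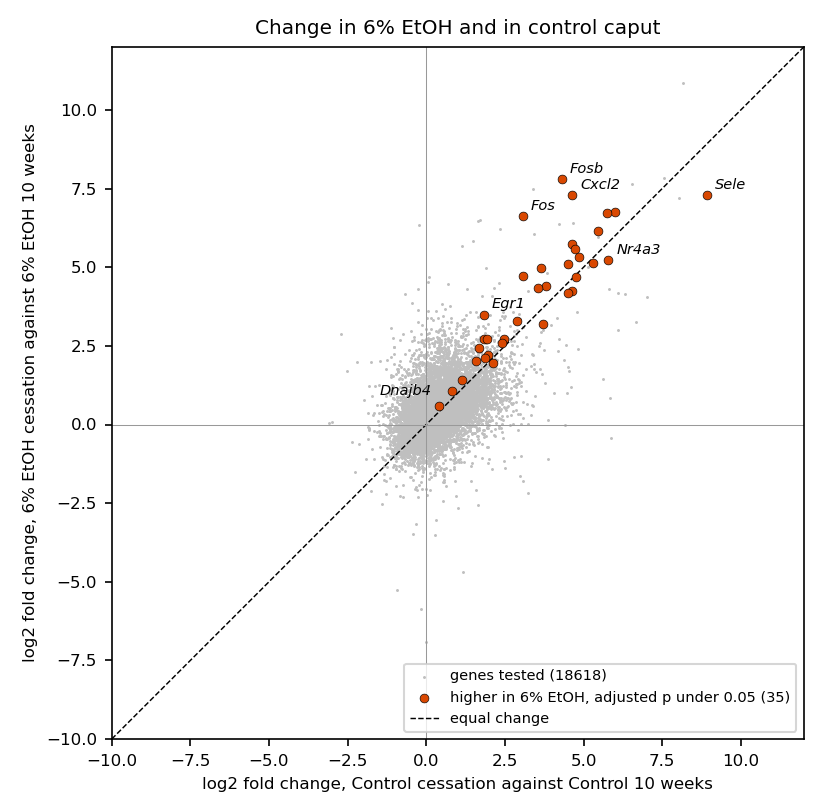
Log2 fold change from 10 weeks to cessation in control caput (horizontal) and in 6% EtOH caput (vertical) for the 18618 tested genes (grey), with the 35 genes called in 6% EtOH in orange. The dashed line marks equal change, and all 35 genes lie to the right of 0 on the control axis. The 35 were chosen by their call on the vertical axis.

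No gene's change differed between the 2 arms past the threshold. The test of the difference itself, the change in 6% EtOH minus the change in control, called 0 genes (0% of 18618, smallest adjusted p = 1). DESeq2 and limma voom also called 0, and 561 genes had an unadjusted p under 0.05 where 931 were expected. Of the 35 genes, 3 had an unadjusted p under 0.05: Fos, Fosb and Egr1. The 35 were chosen by their change in 6% EtOH, which is 1 term of this difference. That choice favours small p-values among them, so the 3 are no separate support for a difference. For Fos the difference was 3.57 ± 1.05 on the log2 scale (edgeR, unadjusted p = 0.00400, adjusted p = 1), with control libraries at 1.69, 2.31 and 22.4 CPM at 10 weeks and 58.9, 40.9 and 118 CPM after cessation. Without Control 10 weeks replicate 3 it was 1.45 ± 0.59. For Fosb the difference of 3.51 ± 1.20 became 0.59 ± 0.76 without that library, and for Egr1 1.67 ± 0.61 became 1.44 ± 0.64.

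The 10 genes of smallest p in that test were taken among genes with an assigned name and a mean log2 CPM of at least 1. Apart from Fos, they had log2 fold changes of opposite sign in the 2 arms, none past the threshold in either. Lrfn4, a synaptic adhesion gene, stood at 7.20, 6.62 and 5.87 CPM at 10 weeks of 6% EtOH and at 9.75, 7.75 and 8.30 CPM after cessation. In controls it stood at 10.5, 9.91 and 11.7 and then at 6.29, 6.75 and 7.14 CPM, so that the groups did not overlap in either arm. The difference was 1.06 ± 0.26 (edgeR, unadjusted p = 0.000798, adjusted p = 1). Iqcg and Prag1 had the same pattern, with differences of 1.19 ± 0.30 and 1.18 ± 0.33. Ndufb1, a subunit of respiratory complex I, went the other way at -0.75 ± 0.22, and so did the mitochondrial ribosomal gene Mrps22 at -0.75 ± 0.22. Ginm1, Fan1, H4c3 and Cr1l, the others of the 10 smallest, lay between -0.70 and 0.64.

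Markers of ciliated cells, which line the efferent ducts upstream of the caput, had the widest gap between the arms among the lists described here. Their median log2 fold change was 2.09 in 6% EtOH and 0.29 in control. Of 16 markers 15 were above 0 and 10 had groups that did not overlap, against 13.8% of all genes, but none was called. Foxj1, the master factor of motile cilia, stood at 4.21, 4.12 and 7.54 CPM at 10 weeks and at 67.3, 29.3 and 6.70 CPM after cessation (edgeR, adjusted p = 0.169), so cessation replicate 3 lay within the 10-week range. The summed level of the list was 63.6 to 82.3 CPM at 10 weeks and 455, 181 and 86.7 CPM in cessation replicates 1, 2 and 3. Without cessation replicate 1 the median was 1.09, and the median of the differences from control was 0.72 against 1.68 with it. The control median was -0.55 without Control cessation replicate 3. In the fit of all libraries the difference from control was above 0 for all 16, against 50.2% of all genes tested. It had an unadjusted p under 0.05 for 6, against 561 of 18618 genes, with none past the adjusted threshold. The 16 share the same libraries and are not separate supports. Over leave-outs of 1 library the unadjusted edgeR p ranged from 0.00288 to 0.0946 for Foxj1 and from 0.000713 to 0.0464 for Ccdc40. Both were highest without 6% EtOH cessation replicate 1.

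Smooth muscle and basal cell markers also had their highest median level in cessation replicate 1. Smooth muscle markers had a median of 1.41 (9 of 10 above 0, none called; 1.71 in control), with Acta2 at 72.5, 92.4 and 108 CPM and then at 472, 250 and 136 CPM. Their summed level was 1610 to 2190 CPM at 10 weeks and 1460 to 2380 CPM after cessation. The basal cell markers had a median of 0.70, with Krt5 at 58.3, 68.3 and 60.3 CPM and then 134, 122 and 48.6 CPM. Markers of germ cells and sperm were above 0 in all 15 tested (median 0.70, control 0.74), and those of macrophages in all 14 (median 0.40, control 0.94), with none called in either list. Without cessation replicate 1 the medians were 0.87 for smooth muscle, 0.35 for basal cells and 0.20 for macrophages. Adipocyte markers had a median of 0.12 that changed sign between leave-outs, from -0.90 to 0.64. Of 8 B cell markers 4 passed the filter, all 4 with cessation libraries above all 10-week libraries and none called, with a median of 1.72 (1.18 in control). Jchain, 1 of the 4, stood at 0.255, 0 and 0 CPM at 10 weeks of 6% EtOH, so the filter favoured a rise in it.

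**Figure D3:**
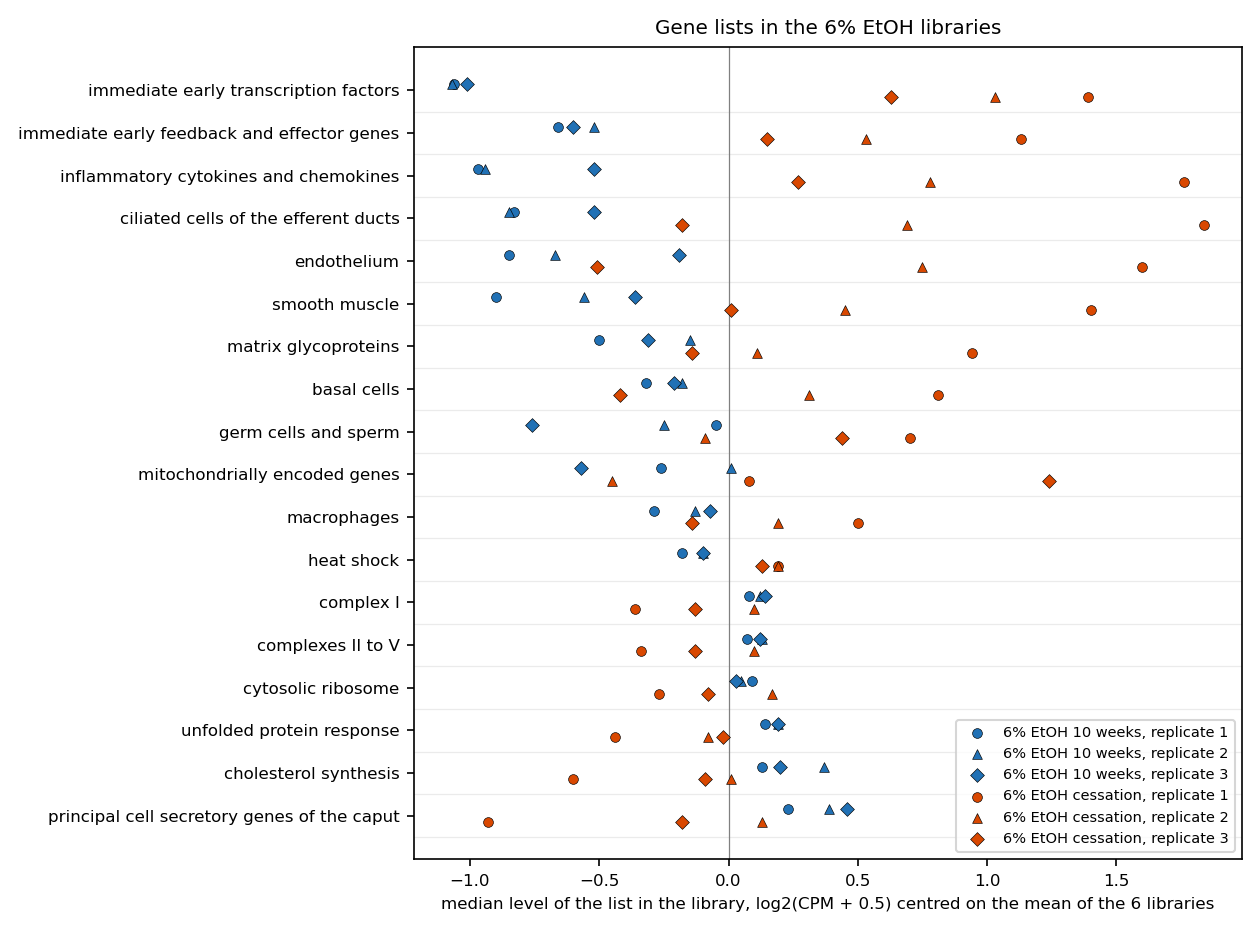
Median level of each gene list in each of the 6 libraries of 6% EtOH, as log2(CPM + 0.5) of each gene centred on its mean over the 6 libraries, for 18 of the 43 lists. Blue marks 10 weeks, orange marks cessation, and symbols mark replicates. The immediate early lists separate the groups, at -1.07 to -1.01 against 0.63 to 1.39 for the transcription factors, while cessation replicate 1 (orange circles) lies outermost in the lists of ciliated cells, endothelium, smooth muscle and secretory genes.

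The secretory programme of principal cells lay lower after cessation, without any gene passing the test. Of 32 tested secretory genes 28 had a log2 fold change below 0, with a median of -0.61, and 12 had cessation libraries below all 10-week libraries (12.2% of all genes did). The control median was -0.20, but -0.53 without Control cessation replicate 2 and 0 without Control cessation replicate 3. The median of the differences between the arms was -0.38, and -0.60 to -0.10 over leave-outs of 1 library. Gpx5, the secreted glutathione peroxidase with the most reads of any gene, stood at 41400, 50000 and 48300 CPM at 10 weeks and at 17400, 32000 and 44100 CPM after cessation. The groups overlapped, and the log2 fold change was -0.58 ± 0.35 (edgeR, adjusted p = 0.354). Wfdc10, a protease inhibitor family gene, stood at 974, 1080 and 1100 CPM and then at 429, 871 and 612 CPM, at -0.72 ± 0.25 (adjusted p = 0.187). Rnase10, a secreted protein of the initial segment, stood at 4000, 5070 and 5650 CPM and then at 1010, 3490 and 2820 CPM. Etv5, a transcription factor of the initial segment, stood at 467, 604 and 679 CPM and then at 148, 394 and 387 CPM. Cessation replicate 1 was lowest in each of these 4 genes, and without it the list's median was -0.40.

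Not all secretory genes followed. Lcn5, a retinoid-binding lipocalin, stood at 6900, 3510 and 2070 CPM and then at 4240, 4440 and 4860 CPM, a log2 fold change of 0.12 ± 0.47. Clu, the extracellular chaperone clusterin, stood at 13600, 9640 and 6720 CPM and then at 8000, 9210 and 7390 CPM. Both varied at 10 weeks by more than the groups differed. The 29 tested beta-defensins had a median of -0.10, which was 0.28 without 10-week replicate 1.

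**Figure D4:**
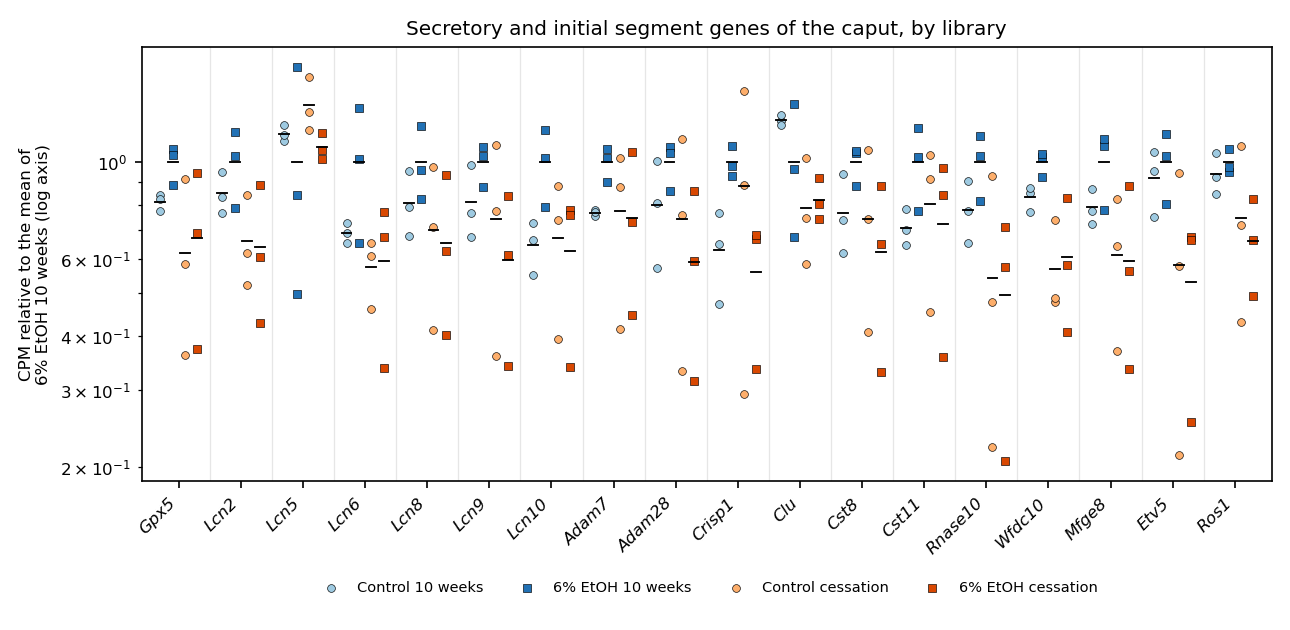
CPM of 18 secretory and initial segment genes in the 12 libraries of 6% EtOH and control, each divided by the gene's mean in 6% EtOH 10 weeks, on a log axis. Lines are group means and points are libraries. Cessation replicate 1 is the lowest cessation library in 25 of the list's 32 tested genes, as for Gpx5 (17400 CPM) and Rnase10 (1010 CPM), and the groups overlap for Gpx5, Lcn5 and Clu.

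Genes of the endoplasmic reticulum and of sterol synthesis, which serve secretory cells, lay slightly lower as well. Of 28 genes of the unfolded protein response 25 were below 0 (median -0.34, control -0.22), and 15 had cessation libraries below all 10-week libraries, against 12.2% of all genes. Eif2ak3, the kinase PERK, stood at 72.6, 77.8 and 87.3 CPM and then at 55.4, 56.0 and 65.3 CPM (edgeR, log2 fold change -0.43 ± 0.12, adjusted p = 0.169). Hspa5, the chaperone BiP, was at 0.03 ± 0.16. Cholesterol synthesis genes had a median of -0.40 (22 of 24 below 0, control -0.22), with Srebf2, the master regulator of the pathway, at -0.65 ± 0.23 (adjusted p = 0.195). None of either list was called.

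The series sets these tissues beside mitochondrial function. Transcripts encoded by mitochondria were above 0 in all 12 tested, with a median of 0.76 (1.29 in control) and none called. mt-Co1, the catalytic subunit of complex IV, stood at 4470, 5320 and 3750 CPM and then at 6590, 4070 and 13300 CPM, so the groups overlapped and cessation replicate 3 was highest. Without 1 library at a time the list's median ranged from 0.16 to 1.09. The nuclear genes of the respiratory chain lay on the other side of 0: 36 of 37 complex I genes and 39 of 42 genes of complexes II to V were below 0, each list with a median of -0.20, and none was called. In control the medians were -0.03 and 0.00. Leaving out 1 library gave -0.30 to -0.13 for complex I and -0.34 to -0.13 for the others, the lowest without cessation replicate 2 and the highest without replicate 1. Ndufb6, a complex I subunit, stood at 24.4, 20.9 and 22.5 CPM and then at 16.2, 18.5 and 15 CPM (edgeR, adjusted p = 0.184).

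Lists tied to ethanol handling and small RNA had medians near 0. Genes of ethanol and aldehyde metabolism had a median of 0.05 (10 of 18 above 0), small RNA biogenesis -0.01 (13 of 26), extracellular vesicles -0.13 (6 of 25) and the integrated stress response 0.06 (18 of 29), with none called. Within the last, Ddit3, which encodes the stress factor CHOP, stood at 8.35, 6.56 and 9.21 CPM and then at 91.7, 73.7 and 27.7 CPM without passing (edgeR, adjusted p = 0.140). Hmox1, the haem-degrading target of Nrf2, stood at 3.19, 6.62 and 6.81 CPM and then at 46.5, 37.6 and 13.2 CPM (adjusted p = 0.165). Their control log2 fold changes were 3.72 and 3.04, also short of the threshold (adjusted p = 0.0594 and 0.0738).

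On the lower side, among genes with an assigned name and a mean log2 CPM of at least 1, Nipal4 was nearest the threshold. This magnesium transporter family gene stood at 8.67, 11.2 and 9.55 CPM and then at 3.27, 4.86 and 3.49 CPM. Its log2 fold change was -1.33 ± 0.27 (edgeR, adjusted p = 0.0562). H1f4, a linker histone, stood at 86.3, 83.6 and 80.0 CPM and then at 38.7, 56.8 and 52.3 CPM (adjusted p = 0.0773). Cd34, a surface sialomucin of vessels and stroma, stood at 95.6, 144 and 113 CPM and then at 65.5, 66.3 and 79.1 CPM (adjusted p = 0.0995), while in control its log2 fold change was -0.04. Ide, the insulin-degrading enzyme, stood at 398, 419 and 430 CPM and then at 174, 247 and 188 CPM, 0.488 of the earlier level (adjusted p = 0.110). The groups did not overlap for any of these 4. Ext2, H1f2, Fam171a2, Wnt7b, Gabarapl2 and Retreg3, the next in order of p, had log2 fold changes between -0.99 and -0.49 and adjusted p-values between 0.137 and 0.160.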

How the data were processed

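RNA sequencing counts of 6 6% EtOH caput libraries were compared, with the other 12 libraries in the fit. The authors deposited whole-number counts of reads per gene. The tools named in the submitters' processing notes are Trimmomatic, STAR and featureCounts, and the build GRCm39 (mm39). The sources used here do not state their versions, the annotation release, the strand setting or how mates were counted. Overlapping genes and gene families with near-identical copies (histones, beta-defensins, mitochondrial genes) are uncertain to that extent.

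From the counts of 53819 entries, filterByExpr (minimum count 10, total 15) kept 18618 genes, holding at least 99.73% of the reads of each library. Counts were scaled by TMM and fitted with edgeR 4.0.16 (R 4.3.3, robust quasi-likelihood, 1 term per group, 18 libraries). The fit was first tested on simulated data with the same spread for every gene and group. That simulation cannot show how the fit behaves where groups differ in spread, as they did here. The common biological coefficient of variation was 25.4%. Replicates differed by more than sampling noise (chi-square per degree of freedom 5.35 or more). It was 8.64 to 26.3 in 6% EtOH 10 weeks and 38.4 to 54.4 in 6% EtOH cessation. In control it was 5.35 to 12.2 at 10 weeks and 39.9 to 99.8 after cessation. Depths are in the report.

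Named were the 15 largest rises with groups that did not overlap and, as no lower gene passed, the 10 lower genes of smallest p. Both kinds had a mean log2 CPM of at least 1. Also named were up to 4 members of a list that passed, or 2 otherwise. The 10 most abundant genes were added, and so were the 10 of smallest p in the test of the difference, under the same level and naming rules as the rises. Others were chosen after their values were seen. The comparison itself was set by the treatment labels, but it, the 43 lists and their members were chosen with earlier results of these data known. Alternatives were other scaling, filters, DESeq2 1.42.0, limma voom 3.58.1, smaller fits and leaving out each library.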

Additional observations from a re-analysis of the deposited data

How the results depend on the processing

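The count of 35 genes in 6% EtOH stayed within 1.5 times under RLE size factors (35, with 34 higher and 1 lower) and a minimum count of 30 (38). It was 1805 with no filter on low counts, 419 with DESeq2 (404 without independent filtering), 10 with limma voom and 106 in a fit of the 6 libraries compared, of which 34 were among the 35. In settings added after seeing the data it was 9 in a fit of the 12 control and 6% EtOH libraries and 74 with voom weights per group. Leaving out each library in turn gave 0 to 88, and within the 6-library fit 33, 23 and 37 without 10-week replicates 1, 2 and 3 and 96, 22 and 1303 without cessation replicates 1, 2 and 3; the cause was not tested. The control count of 22 was 1740 with no filter, 993 with DESeq2 (923 without independent filtering), 3 with voom, 0 in the 6-library fit and 0 to 2724 over leave-outs. The count for the difference was 88 with no filter and 0 in the other settings and leave-outs. No sign changed among called genes: over the alternatives 166 values of named called genes stayed past the threshold and 98 did not. Of the list medians, 500 moved by less than the spread between replicates and 16 by more. No paired analysis was possible because the labels carry no replicate numbers shared between groups. Genes with a few reads at 10 weeks have no firm fold at this depth.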

Other observations

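Histone genes were looked at after their values were seen, so they carry no test. Of 51 tested histone genes 43 were below 0 in 6% EtOH, with a median log2 fold change of -0.49, and 22 had cessation libraries below all 10-week libraries, against 12.2% of all genes tested; none was called. Their summed level was 1060, 1100 and 1130 CPM in 10-week replicates 1, 2 and 3 and 563, 834 and 784 CPM in the cessation replicates. In control the median was -0.06, with 32 of 51 below 0 and 5 with cessation libraries below all 10-week libraries (13.1% of all genes), and the summed level was 1020, 1010 and 898 CPM and then 785, 938 and 696 CPM. The median of the differences between the arms was -0.35.

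5 genes were called in control and not in 6% EtOH: Fn1, Gm31763, Ifrd1, Maff and Gm24336. Fn1, the matrix protein fibronectin, stood at 36.1, 40.3 and 38.2 CPM in Control 10 weeks and at 63.2, 65.5 and 61.0 CPM in Control cessation. In 6% EtOH it stood at 42.9, 42.7 and 48.9 CPM and then at 55.7, 49.5 and 45.7 CPM. The difference had an unadjusted p of 0.00841 in edgeR's test and an adjusted p of 1. Maff, a small Maf transcription factor, and Ifrd1 had non-overlapping 6% EtOH groups, with adjusted p-values of 0.0975 and 0.0962 there.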
